A study of Homo sapiens with 21 samples.

Results

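The 9 genes described here belong to the YAP/TEAD axis: CYR61, CTGF, ANKRD1, AMOTL2, AXL, YAP1, WWTR1, TEAD1 and LATS2. They were taken by name from 57820 genes of an RNA-seq count table, and all 9 were among the 30549 genes with enough counts to be tested. YAP1 and its paralog TAZ, which is encoded by WWTR1, are transcriptional coactivators that do not bind DNA themselves and act mainly through TEAD factors such as TEAD1. When the Hippo kinase cascade is active, LATS kinases phosphorylate both coactivators and hold them in the cytoplasm. When it is inactive, as in spread cells under mechanical tension, they enter the nucleus and TEAD target genes such as CYR61, CTGF and ANKRD1 are transcribed. Among these genes AMOTL2 and LATS2 are at the same time targets and inhibitors of the coactivators, and AXL, a receptor tyrosine kinase, is a target in several tumor types. CYR61 and CTGF are named CCN1 and CCN2 in newer annotations.

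The cells were A673, a Ewing sarcoma line that carries the EWS/FLI fusion, and no other Ewing line was used. In 7 conditions with 3 libraries each, cells received an shRNA and then a cDNA, both by retrovirus. The control iLuc carried an shRNA against luciferase and the empty cDNA vector, so that endogenous EWS/FLI was retained. The depleted control iEF carried an shRNA against the 3′UTR of EWS/FLI and the same empty vector. The other 5 conditions carried the iEF shRNA and a 3X-FLAG tagged rescue cDNA. These were full-length EWS/FLI (WT-EF), DAF with tyrosine to alanine substitutions in the repeats of the amino-terminal EWS domain, mut9 with a shortened EWS domain, DAF-mut9 with the repeat tyrosines of mut9 substituted, and del22, written Δ22 in the study, which lacks the EWS domain. All libraries passed through puromycin selection, and hygromycin was added after the cDNA until day 16. Each condition thus shares viral infection and drug selection, and each shRNA is a single hairpin. The column names of DAF-mut9 libraries in the count table read mut9d, and every DAF-mut9 value rests on reading them so.

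Library totals ran from 32.9 to 46.2 M counts, so that 1 CPM (a count per M of the library total, scaled with TMM) stood for 32.0 to 45.2 counts. Libraries of a condition correlated with r between 0.974 and 0.990 across genes. The level of FLI1, whose 3′ part is in the fusion, was 61.3, 60.6 and 89.0 CPM in iLuc and 20.8, 20.0 and 21.1 CPM in iEF. The rescue conditions spanned 21.9 to 62.0 CPM of FLI1, with WT-EF lowest at 21.9 to 26.5 and del22 highest at 41.3 to 62.0, and the part of these levels in the differences between constructs was not tested. FLI1 counts include its 3′UTR, which the hairpin targets and a rescue cDNA need not carry. Levels of FLI1 in the rescue conditions may therefore not be on one scale with those in iLuc. Of 5 markers of Ewing cells, NR0B1, NKX2-2, STEAP1 and PRKCB were higher in every iLuc library than in every iEF library, and CD99 had hardly any counts in any library. CD99 lies in the pseudoautosomal region, and its near absence from the counts was not taken as absence of transcription. In bulk RNA, fewer cells that transcribe a gene and less RNA per cell cannot be told apart.

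Promoters of the members were examined for the letters GGAATG, the core that TEAD factors bind, on both strands in the 250 bases before the transcription start. RefSeq promoters on GRCh38.p14 were matched for 7 of the 9 genes, not for CYR61 and TEAD1. The 10 windows of these genes held the letters in 5 cases, belonging to 5 genes, against 11.9% of 34943 promoter windows of the same length. The genes were chosen by name from the YAP/TEAD axis, targets of TEAD factors among them. This contrast with all windows is therefore no independent evidence about them. The 5 windows are printed because ANKRD1, CTGF and AXL carry the largest changes of the comparisons that follow, and AMOTL2 and YAP1 are the other members whose windows held the letters. Capitals mark GGAATG or its reverse complement CATTCC.
CTGF, chr6:131951373-131951622, minus strand: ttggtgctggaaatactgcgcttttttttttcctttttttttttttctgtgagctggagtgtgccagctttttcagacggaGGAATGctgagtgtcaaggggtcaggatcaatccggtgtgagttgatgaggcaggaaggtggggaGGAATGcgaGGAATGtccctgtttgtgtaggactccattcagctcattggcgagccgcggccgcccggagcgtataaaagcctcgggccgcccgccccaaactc
ANKRD1, chr10:90921088-90921337, minus strand: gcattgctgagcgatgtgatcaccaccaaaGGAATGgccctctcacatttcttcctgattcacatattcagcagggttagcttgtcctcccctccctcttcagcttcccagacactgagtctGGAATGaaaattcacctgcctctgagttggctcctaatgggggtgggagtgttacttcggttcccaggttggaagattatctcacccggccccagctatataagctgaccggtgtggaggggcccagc
AXL, chr19:41226505-41226754, plus strand: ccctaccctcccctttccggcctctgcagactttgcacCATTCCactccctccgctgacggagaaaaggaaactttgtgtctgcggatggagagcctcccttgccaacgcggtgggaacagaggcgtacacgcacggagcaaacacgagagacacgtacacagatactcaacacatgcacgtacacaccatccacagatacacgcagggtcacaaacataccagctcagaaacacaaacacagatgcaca
AMOTL2, chr3:134374448-134374697, minus strand: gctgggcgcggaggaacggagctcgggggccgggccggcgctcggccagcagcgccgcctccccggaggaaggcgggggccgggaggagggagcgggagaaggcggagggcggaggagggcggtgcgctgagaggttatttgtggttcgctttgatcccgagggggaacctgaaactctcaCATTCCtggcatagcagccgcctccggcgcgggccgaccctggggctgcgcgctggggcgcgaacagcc
YAP1, chr11:102110197-102110446, plus strand: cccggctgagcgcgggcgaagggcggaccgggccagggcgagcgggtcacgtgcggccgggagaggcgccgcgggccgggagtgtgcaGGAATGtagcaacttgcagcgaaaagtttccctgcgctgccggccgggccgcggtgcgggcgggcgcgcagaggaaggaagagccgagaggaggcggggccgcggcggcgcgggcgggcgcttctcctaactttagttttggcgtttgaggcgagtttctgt

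The CTGF window held the letters at 3 places, which began 169, 104 and 95 bases before the start. ANKRD1 held them at 220 and 128 bases before the start, with TGATTCA, which does not overlap them, at 195 bases. It matches the AP-1 letters as searched, TGANTCA, only because N allows any middle base. AP-1 letters were in 6.59% of all promoter windows and in no other window of the members. AMOTL2 held the TEAD letters at 69 bases and AXL at 212 bases, in both cases for 1 of the 2 windows of the gene. YAP1 held them at 162 bases, and also GGAAGGAA, a pair of the GGAA units that EWS/FLI binds in repeats, at 90 bases. That pair was in 3.06% of all windows. The single LATS2 window and the 2 WWTR1 windows had none of these letters. A match describes the sequence and does not show that a factor is bound.

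Averaged over all 21 libraries and per kilobase of exon (RPKM of the TMM-scaled counts), ANKRD1 was the most abundant of the 9 genes at 117 RPKM. CTGF followed at 42.2, YAP1 at 35.8, WWTR1 at 27.6, CYR61 at 26.9, TEAD1 at 16.8, AXL at 16.5, AMOTL2 at 15.9 and LATS2 at 9.83 RPKM. Their spread differed far more than these means. The condition with the highest mean exceeded the lowest 117-fold for ANKRD1 and 50.9-fold for AXL, but 1.48-fold for TEAD1 and 1.49-fold for YAP1. WWTR1 spanned 4.26-fold, CTGF 7.39-fold, LATS2 2.36-fold, CYR61 2.32-fold and AMOTL2 1.98-fold.

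**Figure D1:**
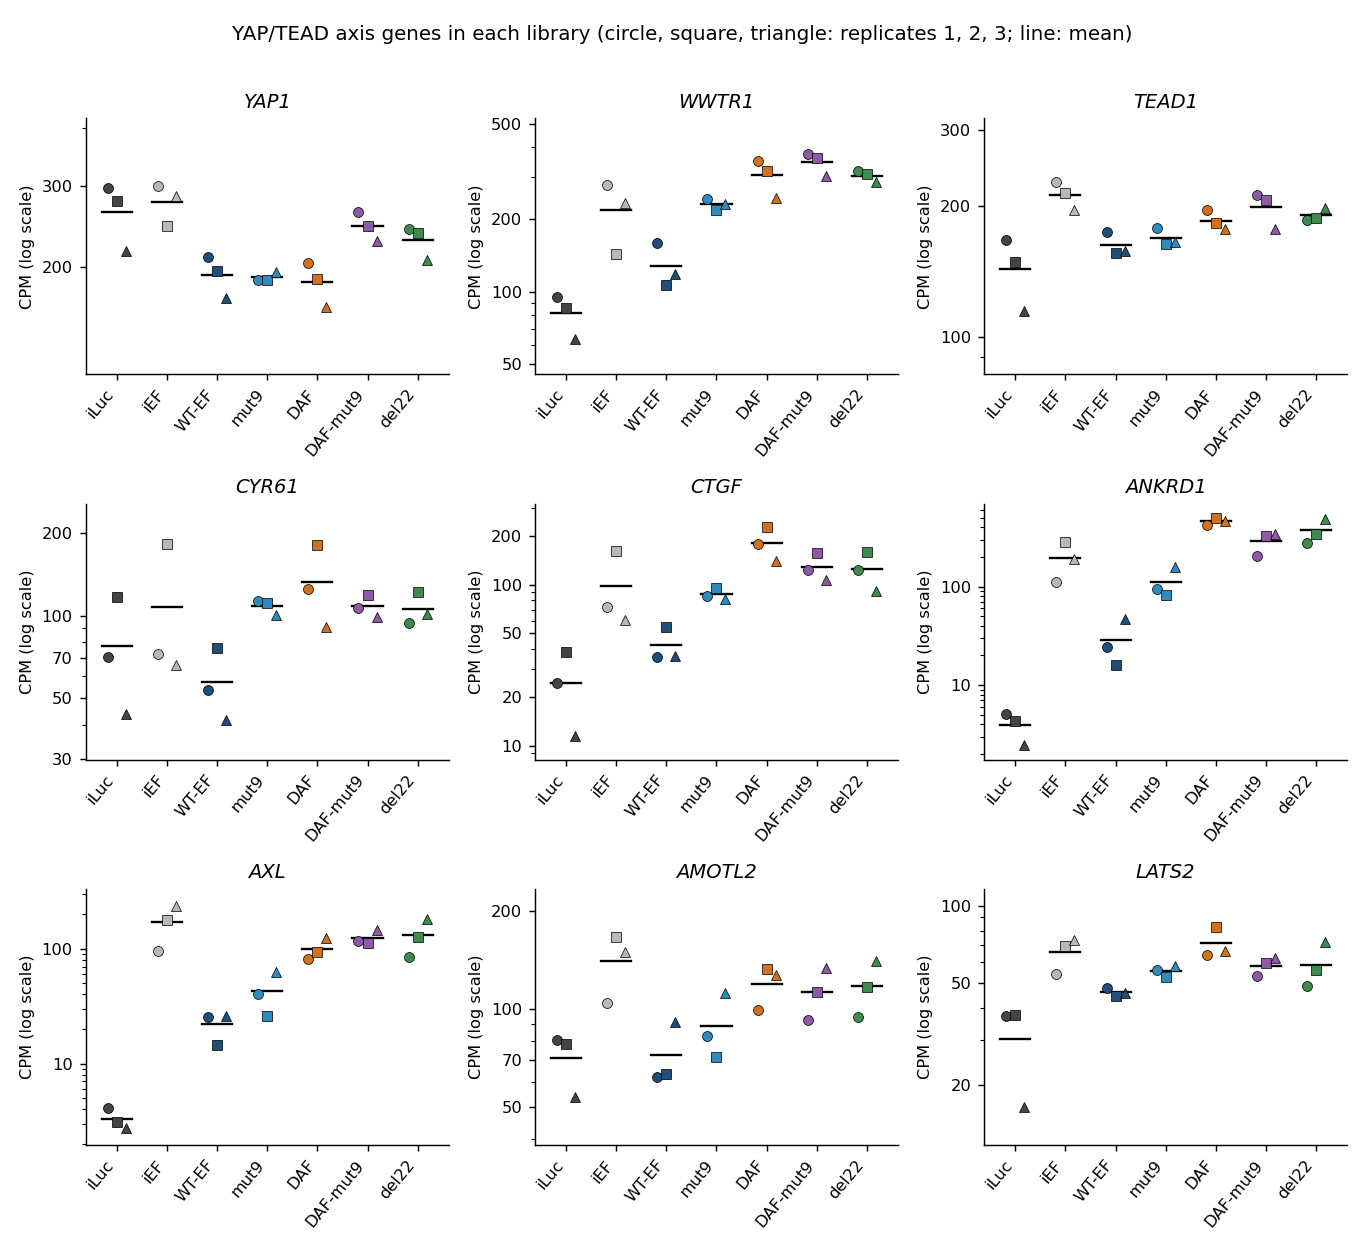
Level of each of the 9 genes in every library, in CPM on a log axis whose range differs between panels. Circles, squares and triangles are replicates 1, 2 and 3 and the line is the mean. ANKRD1 is at 2.46 to 5.11 CPM in iLuc and at 81.9 CPM or more in mut9, iEF, DAF-mut9, del22 and DAF, whereas YAP1 stays between 164 and 299.6 CPM in all libraries.

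The coactivators did not follow each other. YAP1 was measured at 296, 278 and 217 CPM in iLuc and at 299.6, 246 and 285 CPM in iEF, which overlapped. It was lower in all 3 libraries of WT-EF (210.4, 196 and 171 CPM), of mut9 (188, 188 and 195 CPM) and of DAF (205, 188 and 164 CPM). DAF-mut9 at 264, 246 and 228 CPM and del22 at 241, 237 and 208 CPM overlapped the iLuc libraries. In the order of means, iEF, iLuc, DAF-mut9, del22, WT-EF, mut9 and DAF, every neighbor overlapped the next.

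WWTR1 had its lowest levels in iLuc, at 95.3, 85.6 and 63.5 CPM, and these did not overlap any other condition. WT-EF followed at 159, 106 and 118 CPM, and iEF was spread over 277, 144 and 234 CPM. The levels in mut9 were 244, 218 and 233 CPM, in DAF 349.8, 319 and 245 CPM, in del22 318, 309 and 286 CPM and in DAF-mut9 376, 361 and 304 CPM. The conditions with the highest WWTR1 were thus the 3 rescue constructs with a substituted or missing EWS domain, which overlapped each other. TEAD1 varied least, from a mean of 143 ± 26.3 CPM in iLuc to 212 ± 15.8 CPM in iEF (SD, n = 3), and every neighbor in its order of means overlapped the next.

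Among the target genes, ANKRD1, a muscle ankyrin repeat protein widely used as a readout of YAP, had the widest range. It was at 5.11, 4.31 and 2.46 CPM in iLuc, which is 98 to 199 counts, and at 112, 285 and 189 CPM in iEF. WT-EF libraries had 24.4, 16.0 and 46.4 CPM and mut9 libraries 94.9, 81.9 and 159.9 CPM. In DAF the levels were 427, 496 and 466 CPM, in DAF-mut9 202, 323 and 342 CPM and in del22 279, 346 and 492 CPM. The groups iLuc, WT-EF and mut9 formed steps with no overlap, and from mut9 upward each neighbor in the order iEF, DAF-mut9, del22 and DAF overlapped the next.

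AXL showed the same 2 lowest steps, with 4.11, 3.14 and 2.76 CPM in iLuc and 25.3, 14.7 and 26.0 CPM in WT-EF. Its highest levels, however, were in iEF at 95.8, 178 and 236 CPM, not in DAF at 81.1, 92.7 and 123 CPM. The libraries of mut9 had 40.5, 25.8 and 62.9 CPM, which overlapped WT-EF and lay below every library of DAF, DAF-mut9 (116, 113 and 146 CPM) and del22 (85.5, 126 and 181 CPM).

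CTGF, a secreted matricellular protein and a direct TEAD target, was at 24.6, 38.1 and 11.5 CPM in iLuc, 72.9, 163 and 60.6 CPM in iEF and 35.9, 54.4 and 36 CPM in WT-EF. In mut9 it was at 85.4, 95.1 and 81.8 CPM, in DAF at 180.3, 228 and 140.0 CPM, in DAF-mut9 at 123, 158 and 107 CPM and in del22 at 124, 159.6 and 91.9 CPM. WT-EF and iLuc overlapped and lay below all other conditions. Replicate 2 of iEF stood apart, at more than the sum of the other 2 iEF libraries.

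CYR61, the matricellular relative of CTGF, was the target with the least separation. Its levels were 70.7, 118 and 43.6 CPM in iLuc, 72.4, 183 and 66.4 CPM in iEF and 53.7, 76.2 and 41.8 CPM in WT-EF. The other conditions were at 113, 111 and 100.4 CPM in mut9, 125, 182 and 91.2 CPM in DAF, 107, 119 and 98.7 CPM in DAF-mut9 and 94.3, 122 and 102 CPM in del22. WT-EF lay below all 4 of these rescue conditions, and iLuc and iEF overlapped every one of them. Replicate 2 had the highest CYR61 in every condition except mut9.

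The feedback genes moved over a narrower range. AMOTL2, an angiomotin family protein that binds YAP, had means from 70.8 ± 14.9 CPM in iLuc and 72.2 ± 16.5 CPM in WT-EF to 140 ± 32.3 CPM in iEF, with each neighbor in the order overlapping the next. LATS2, a kinase of the cascade, was at 37, 37.5 and 16.3 CPM in iLuc and 47.9, 44.4 and 45.5 CPM in WT-EF, without overlap, and from 48.7 to 82.9 CPM in all other libraries.

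To describe the effect of endogenous EWS/FLI, iLuc was compared with iEF. With endogenous EWS/FLI retained, 7 of the 9 genes were lower and none was higher, where 22.4% of all tested genes were called lower and 18.7% higher (edgeR quasi-likelihood test with the replicate set as a block, Benjamini-Hochberg adjusted p below 0.05 over all genes). AXL had a log2 fold change of -5.60 with an SE of 0.32 (adjusted p = 1.34e-11; errors of fold changes are SE from here on) and ANKRD1 one of -5.55 ± 0.39 (adjusted p = 3.83e-10). CTGF differed by -2.00 ± 0.21 (adjusted p = 9.21e-08) and WWTR1 by -1.42 ± 0.16 (adjusted p = 4.03e-07). LATS2 at -1.12, AMOTL2 at -0.95 and TEAD1 at -0.57 were also called. YAP1 differed by -0.08 with a 95% interval from -0.29 to 0.13, and CYR61 by -0.45 from -0.89 to -0.01 (adjusted p = 0.0979). CYR61 passed when iLuc replicate 2 (-0.63, adjusted p = 0.0479) or iEF replicate 1 (-0.62, adjusted p = 0.0353) was left out.

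Rescue with WT-EF was compared with iEF to see which of these differences returned with the full-length cDNA. Against iEF, WT-EF had 8 of the 9 genes lower and none higher, beside 16.9% lower and 11.4% higher over all tested genes. AXL fell by 2.92 ± 0.27 on the log2 scale (adjusted p = 7.22e-08), ANKRD1 by 2.78 ± 0.34 (adjusted p = 2.39e-06), CTGF by 1.14 ± 0.20 (adjusted p = 0.000165) and AMOTL2 by 0.96 ± 0.19 (adjusted p = 0.000445). Also called lower were CYR61 at -0.83, WWTR1 at -0.77, YAP1 at -0.53 and TEAD1 at -0.38, and LATS2 at -0.52 was not (adjusted p = 0.0793). Of these, YAP1 and CYR61 had not been called for iLuc against iEF. Both comparisons use the same 3 iEF libraries. CYR61 lost its call without iEF replicate 2 (-0.49, adjusted p = 0.0722) and without the replicate block (-0.91, adjusted p = 0.0529). With the ComBat-adjusted values and limma, CYR61 (-0.51, adjusted p = 0.0851) and TEAD1 (-0.19, adjusted p = 0.0834) were not called. LATS2 gained one without iLuc replicate 3 (-0.51, adjusted p = 0.00298).

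Set directly against iLuc, WT-EF had 4 genes higher and 1 lower, beside 9.78% and 8.52% of all tested genes. ANKRD1 was higher by 2.77 ± 0.36 (adjusted p = 1.01e-05), AXL by 2.68 ± 0.29 (adjusted p = 8.84e-07), CTGF by 0.85 ± 0.20 (adjusted p = 0.00457) and WWTR1 by 0.65 ± 0.16 (adjusted p = 0.00649). ANKRD1 in WT-EF was therefore 6.84-fold above iLuc and 6.86-fold below iEF. YAP1 was lower by -0.45 ± 0.10 (adjusted p = 0.00348). AMOTL2 differed by -0.01 with an interval from -0.40 to 0.37. The call of CTGF was lost without the replicate block (0.77, adjusted p = 0.154). LATS2 at 0.61 (adjusted p = 0.0566) gained one without iLuc replicate 1 (0.88), iLuc replicate 2 (0.79) or del22 replicate 3 (0.62), and with the ComBat values and limma (0.55, adjusted p = 0.00707).

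**Figure D2:**
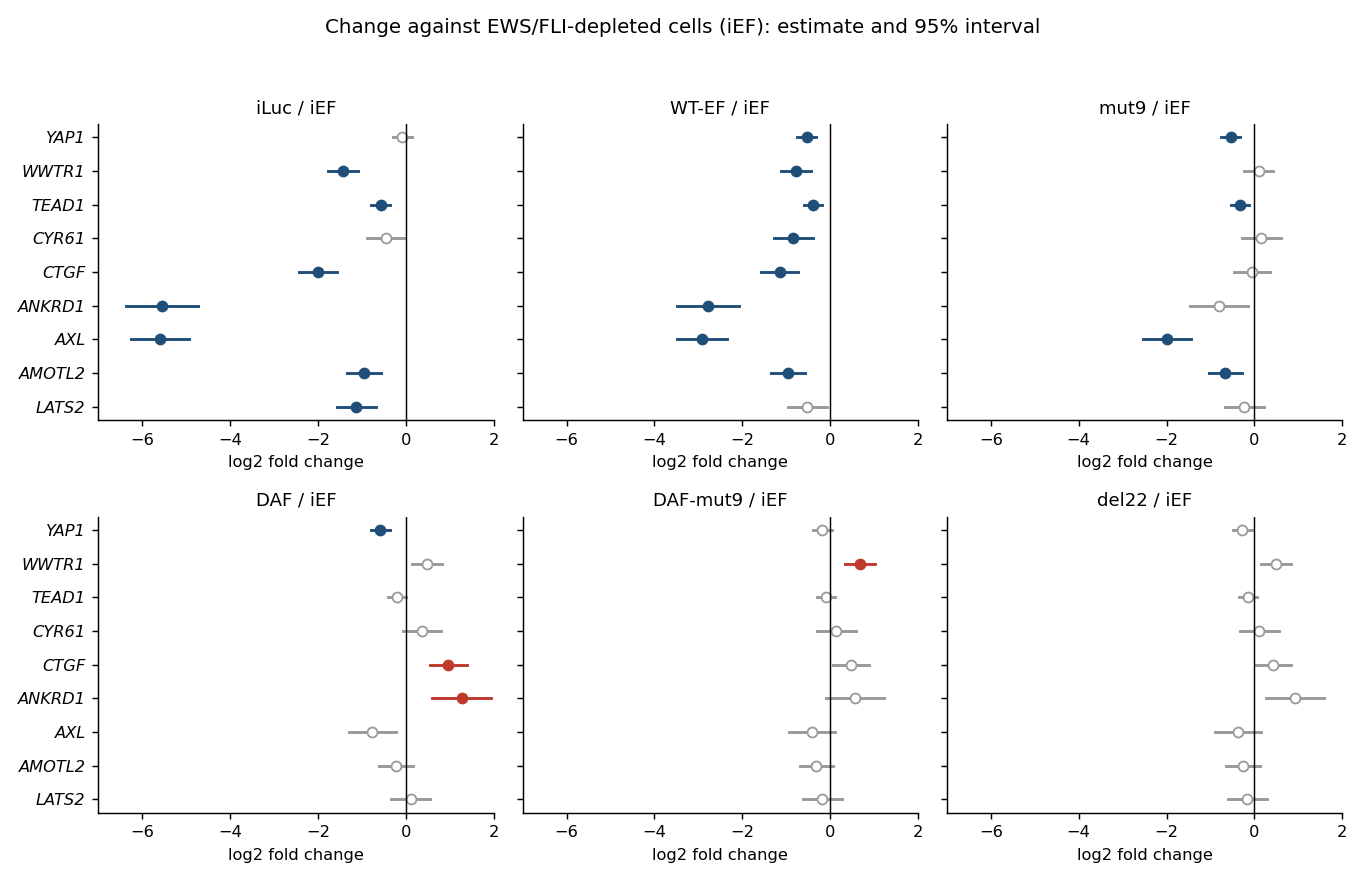
Log2 fold change of each gene against iEF in 6 conditions, as the edgeR estimate (point) with its 95% interval (line). Filled points are called at adjusted p below 0.05, blue for lower and red for higher, and open gray points are not called. ANKRD1 and AXL are near -5.6 in iLuc and near -2.8 and -2.9 in WT-EF, and ANKRD1 is at 1.28 in DAF.

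Rescue with mut9 gave 4 genes lower than iEF and none higher, beside 8.33% lower and 6.22% higher over all tested genes. AXL fell by 1.99 ± 0.26 (adjusted p = 1.58e-05), AMOTL2 by 0.66 ± 0.18 (adjusted p = 0.0187), YAP1 by 0.54 ± 0.10 (adjusted p = 0.000893) and TEAD1 by 0.33 ± 0.10 (adjusted p = 0.0307). CTGF at -0.05 and CYR61 at 0.16 were not called, with intervals from -0.46 to 0.36 and from -0.28 to 0.60. ANKRD1 at -0.81 was not called (adjusted p = 0.103) and was called without iLuc replicate 3 (-0.82) or iEF replicate 1 (-1.06). AMOTL2 was lost without iEF replicate 2 (-0.50) or mut9 replicate 2 (-0.49), and TEAD1 without any 1 of the iEF libraries, mut9 replicate 1 or mut9 replicate 2 (between -0.36 and -0.31) and without the replicate block (-0.33, adjusted p = 0.0676) or with the ComBat values and limma (-0.23, adjusted p = 0.0665).

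DAF differed from iEF in 3 genes, with 2 higher and 1 lower, beside 3.41% higher and 4.02% lower over all tested genes. ANKRD1 rose by 1.28 ± 0.32 (2.42-fold, adjusted p = 0.0158) and CTGF by 0.97 ± 0.20 (1.96-fold, adjusted p = 0.00394). Both were higher than in iEF within each of the 3 replicate sets, although both are lower in iLuc than in iEF. YAP1 fell by 0.58 ± 0.10 (adjusted p = 0.00109). The ANKRD1 call was lost without iEF replicate 1, iEF replicate 3, DAF replicate 1 or DAF replicate 2 (1.03 to 1.22, adjusted p from 0.066 to 0.0915) and with the ComBat values and limma (1.24, adjusted p = 0.0633), and that of CTGF without the replicate block (0.88, adjusted p = 0.159). CYR61 was called without iEF replicate 2 (0.71), AXL without iLuc replicate 3 (-0.75) or iEF replicate 1 (-1.03), and WWTR1 without iLuc replicate 3 (0.49) or iEF replicate 3 (0.65).

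DAF-mut9 and del22 had the fewest of the 9 genes called against iEF. In DAF-mut9, WWTR1 was higher by 0.68 ± 0.16 (adjusted p = 0.021) and no other gene was called, beside 1.26% higher and 2.14% lower over all tested genes. This call was lost without iEF replicate 2 (0.44), any 1 of the DAF-mut9 libraries (0.60 to 0.73) or the replicate block (0.67, adjusted p = 0.0786), and CTGF was called without iEF replicate 2 (0.75). In del22 edgeR called none of the 9 genes, beside 0.881% higher and 1.79% lower over all genes, DESeq2 called none, and 4 of the 9 had an unadjusted p below 0.05. ANKRD1 at 0.92 (interval 0.26 to 1.58), WWTR1 at 0.49 (0.16 to 0.83), CTGF at 0.42 (0.00 to 0.83) and YAP1 at -0.28 (-0.49 to -0.07) were these 4. ANKRD1 was called without iEF replicate 2 (1.38, adjusted p = 0.0212).

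The constructs were then compared with each other, and iEF enters these values only through the shared fit. Against WT-EF, mut9 had 5 genes higher and none lower, where 4.95% of all tested genes were higher and 1.2% lower. ANKRD1 was higher by 1.97 ± 0.33 (adjusted p = 0.000795), CTGF by 1.10 ± 0.20 (adjusted p = 0.00171), CYR61 by 0.99 ± 0.21 (adjusted p = 0.00621), AXL by 0.93 ± 0.26 (adjusted p = 0.0344) and WWTR1 by 0.88 ± 0.16 (adjusted p = 0.00166). YAP1 at -0.01 and TEAD1 at 0.06 had intervals within 0.27 of 0. Without the replicate block CYR61 (0.92, adjusted p = 0.146), CTGF (1.05, adjusted p = 0.0962) and AXL (0.97, adjusted p = 0.0988) were not called. CYR61 was also lost without WT-EF replicate 3 or mut9 replicates 1 or 3 (0.85 to 0.93), and AXL without WT-EF replicates 2 or 3, DAF replicate 3 or mut9 replicates 1 or 3 (0.72 to 0.90).

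DAF against WT-EF gave the largest number of higher genes, 7 of 9 with none lower, beside 14.3% higher and 10.6% lower over all tested genes. ANKRD1 was 16.6-fold higher (log2 4.05 ± 0.36, adjusted p = 6.58e-08), AXL 4.48-fold (2.16 ± 0.26, adjusted p = 3.36e-06) and CTGF 4.33-fold (2.11 ± 0.21, adjusted p = 2.13e-07). WWTR1 was higher by 1.26 ± 0.16 (adjusted p = 5.69e-06), CYR61 by 1.20 ± 0.21 (adjusted p = 0.00022), AMOTL2 by 0.74 ± 0.18 (adjusted p = 0.00504) and LATS2 by 0.63 ± 0.21 (adjusted p = 0.0359). All 7 were free of overlap between the conditions, and so was TEAD1, which was not called. The share of all tested genes without overlap was not counted, so the lack of overlap is no trait shown to be particular to these genes. YAP1 differed by -0.05 (interval -0.27 to 0.16) and TEAD1 by 0.19 (-0.02 to 0.40). AMOTL2 was lost without WT-EF replicate 2 (0.61, adjusted p = 0.0551), and LATS2 without any 1 of the 6 libraries (0.53 to 0.68).

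The EWS deletion in mut9 and the substitutions in DAF were set against each other in mut9 versus DAF. CTGF (-1.02 ± 0.20, adjusted p = 0.00278), ANKRD1 (-2.08 ± 0.33, adjusted p = 0.000403) and AXL (-1.24 ± 0.26, adjusted p = 0.00443) were lower in mut9 and none was higher, beside 3.48% lower and 3.13% higher over all tested genes. CYR61 differed by -0.22 with an interval from -0.65 to 0.22. CTGF was lost without the replicate block (-1.06, adjusted p = 0.0845), and AMOTL2 at -0.44 gained a call without iLuc replicate 3 (adjusted p = 0.0447).

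Substitution of the repeat tyrosines within the short domain was measured as DAF-mut9 versus mut9. AXL was higher by 1.58 ± 0.26 (3.00-fold, adjusted p = 0.000263), ANKRD1 by 1.37 ± 0.32 (adjusted p = 0.00713), WWTR1 by 0.58 ± 0.16 (adjusted p = 0.0224) and YAP1 by 0.36 ± 0.10 (adjusted p = 0.0265), with none lower, beside 5.15% higher and 4.68% lower over all tested genes. CYR61 was at -0.01 (interval -0.45 to 0.42) and CTGF at 0.53 (0.12 to 0.94, adjusted p = 0.104). Without mut9 replicate 2 the calls of ANKRD1 (1.17, adjusted p = 0.0634), WWTR1 (0.58) and YAP1 (0.36) were lost and AXL alone stayed. With the ComBat values and limma ANKRD1 (1.17, adjusted p = 0.0633) and YAP1 (0.26, adjusted p = 0.0679) were not called either. WWTR1 was also lost without mut9 replicate 1 (0.53) or DAF-mut9 replicate 2 (0.49), YAP1 without any 1 of the DAF-mut9 libraries or mut9 replicate 1 (0.31 to 0.36), and both without the replicate block (0.58 and 0.37), whereas CTGF was called without iLuc replicate 3 (0.54) or mut9 replicate 3 (0.72).

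**Figure D3:**
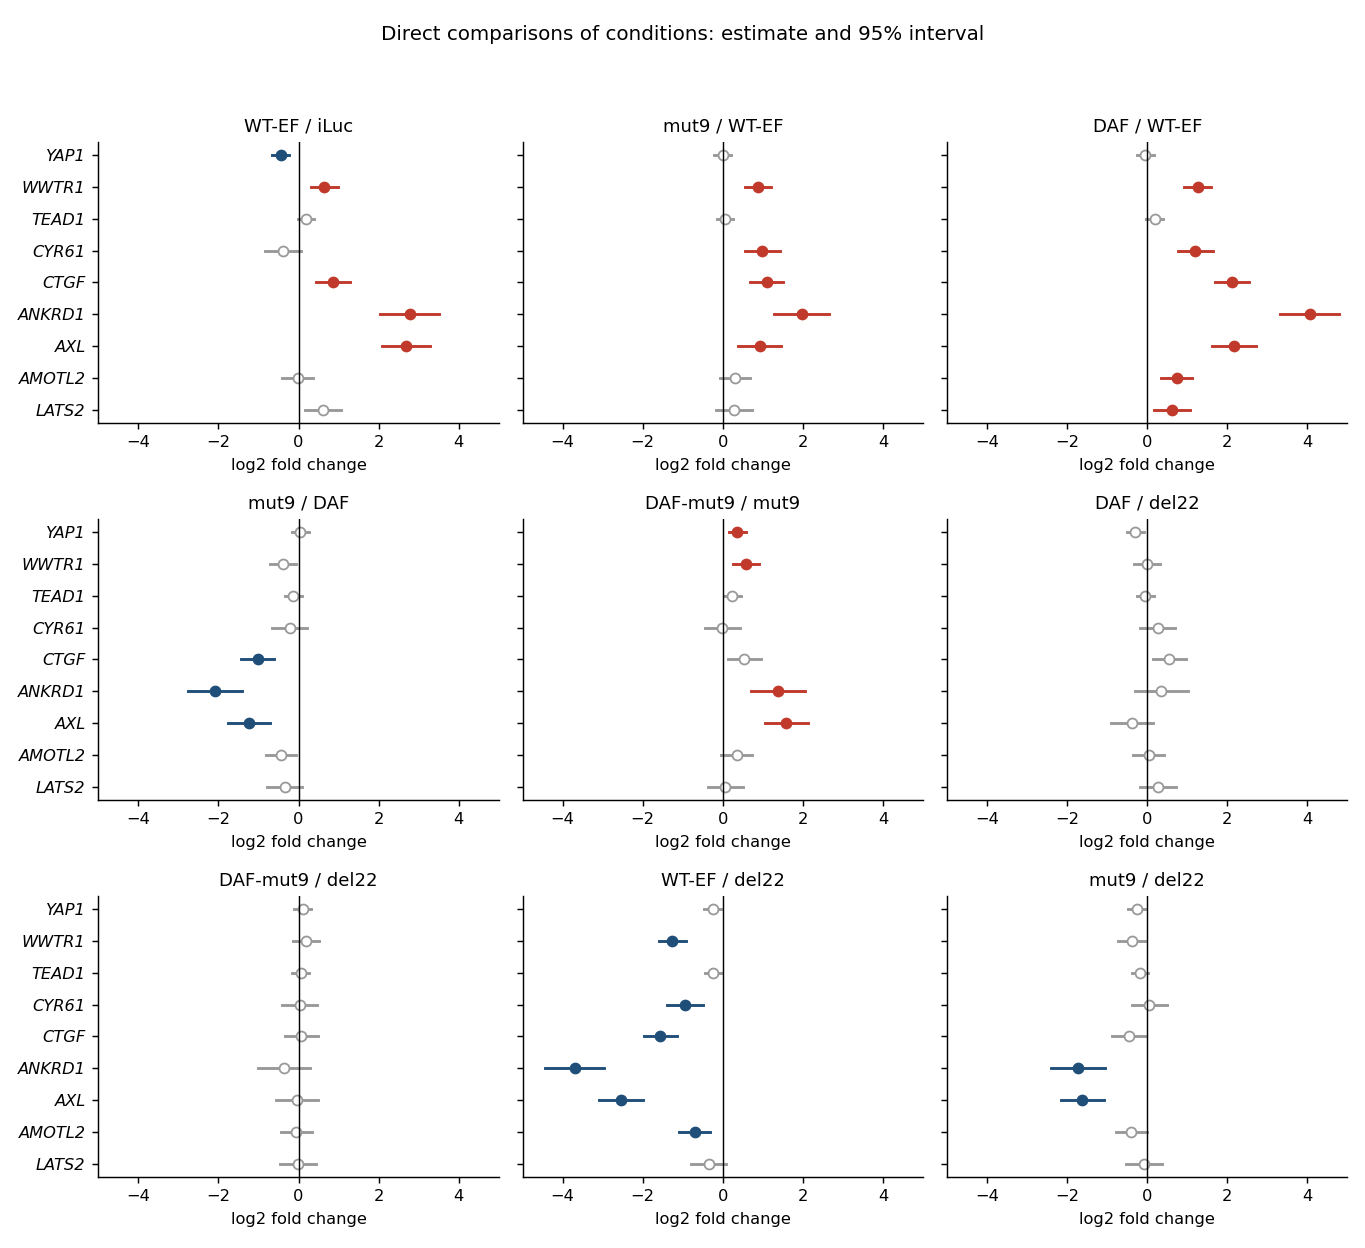
Log2 fold change of each gene in 9 direct comparisons, the first condition over the second, with 95% intervals and the colors of the plot against iEF. ANKRD1 reaches 4.05 in DAF over WT-EF and -3.70 in WT-EF over del22, and all intervals of DAF-mut9 over del22 include 0.

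Relative to del22, which has no EWS domain, edgeR called none of the 9 genes in DAF or in DAF-mut9. Over all tested genes 0.972% were called in DAF versus del22 and 0% in DAF-mut9 versus del22, the latter with 671 genes at an unadjusted p below 0.05. DESeq2 called no member in either comparison, and 2 members in DAF and 0 in DAF-mut9 had an unadjusted p below 0.05. For DAF these were CTGF at 0.55 (interval 0.14 to 0.97) and YAP1 at -0.30 (-0.52 to -0.09). For DAF-mut9 the intervals reached from -1.01 to 0.30 for ANKRD1 and from -0.11 to 0.32 for YAP1.

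WT-EF and mut9 were also set against del22, in tests added after the data were seen. WT-EF had 6 genes lower, beside 14.5% over all tested genes: ANKRD1 (-3.70 ± 0.35, adjusted p = 1.13e-07), AXL (-2.54 ± 0.27), CTGF (-1.56 ± 0.20), WWTR1 (-1.27 ± 0.16), CYR61 (-0.94 ± 0.21) and AMOTL2 (-0.70 ± 0.18). In mut9, ANKRD1 (-1.73 ± 0.32, adjusted p = 0.00105) and AXL (-1.62 ± 0.26, adjusted p = 0.000215) were lower, beside 4.64% over all tested genes. CTGF in mut9 was at -0.46 (interval -0.88 to -0.05) and CYR61 at 0.05 (-0.39 to 0.48). For WT-EF, AMOTL2 was lost without WT-EF replicate 2 (-0.58), CYR61 without the replicate block (-0.89, adjusted p = 0.0624), and without iLuc replicate 3 LATS2 (-0.34), YAP1 (-0.25) and TEAD1 (-0.23) were called as well. For mut9, WWTR1 was called without iEF replicate 2 (-0.39).

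The exons of 5 members overlap other genes in GENCODE 44 on GRCh37. CTGF shares 278 bases with the antisense LINC01013, WWTR1 756 bases with WWTR1-AS1, YAP1 628 and AXL 67 bases with antisense transcripts that have no symbol, and AMOTL2 187 bases with the pseudogene RPL39P5 on the same strand. The strand setting of the counting is not given in the sources used here, and reads in these bases cannot be told apart.

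Other targets of the pathway were taken from a published signature of YAP and TAZ target genes, leaving out the members. Of its 16 genes, 13 were lower in iLuc than in iEF, 12 in WT-EF, 11 in mut9, 4 in DAF, 1 in DAF-mut9 and 1 in del22, and 2 were higher in mut9 and 1 in DAF. Over all tested genes the shares called lower were 22.4%, 16.9%, 8.33%, 4.02%, 2.14% and 1.79% in this order, and those called higher 6.22% in mut9 and 3.41% in DAF. The median log2 fold change of the list was -2.14 in iLuc, -1.51 in WT-EF, -0.94 in mut9, -0.14 in DAF, -0.10 in DAF-mut9 and -0.14 in del22, beside medians over all tested genes of 0.01, 0.00, 0.02, -0.03, -0.02 and 0.00. In iLuc the largest difference was that of IGFBP3, an IGF-binding protein, at -8.08 ± 0.31 in iLuc (adjusted p = 1.1e-13), -3.73 in WT-EF and -1.38 in mut9, and -0.03 in DAF (adjusted p = 0.976). Mean levels of IGFBP3 were 16.9 ± 0.863 CPM in iLuc, 353 ± 155 in WT-EF and 4539 ± 1159 in iEF (SD, n = 3). The study counts IGFBP3 among the direct repressed targets of EWS/FLI. Its qRT-PCR, normalized to RPL30, showed partial rescue of that repression by DAF, which the value of -0.03 in DAF here does not show. The qRT-PCR was reported before the new replicate experiments that included mut9, from which these libraries come. Measure and samples thus both differ. NT5E, the ecto-5′-nucleotidase CD73, was at -5.57 ± 0.21 in iLuc, -2.31 in WT-EF, -1.54 in mut9 and -0.97 in DAF, all called. NUAK2, a kinase related to AMPK, was at -5.44 ± 0.52, -4.21 and -1.49 in the first 3 of these and at -0.73 in DAF without a call. GADD45A, a stress response gene chosen here after its values were seen, was lower in all 6 conditions, and was the gene called in DAF-mut9 (-1.52, adjusted p = 0.0306) and in del22 (-1.80, adjusted p = 0.015). All 6 comparisons share the iEF libraries. Levels of GADD45A ranged widely, from 38.8 to 633 CPM around a mean of 134 CPM over the 21 libraries. The weight of single libraries in its changes was not tested.

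**Figure D4:**
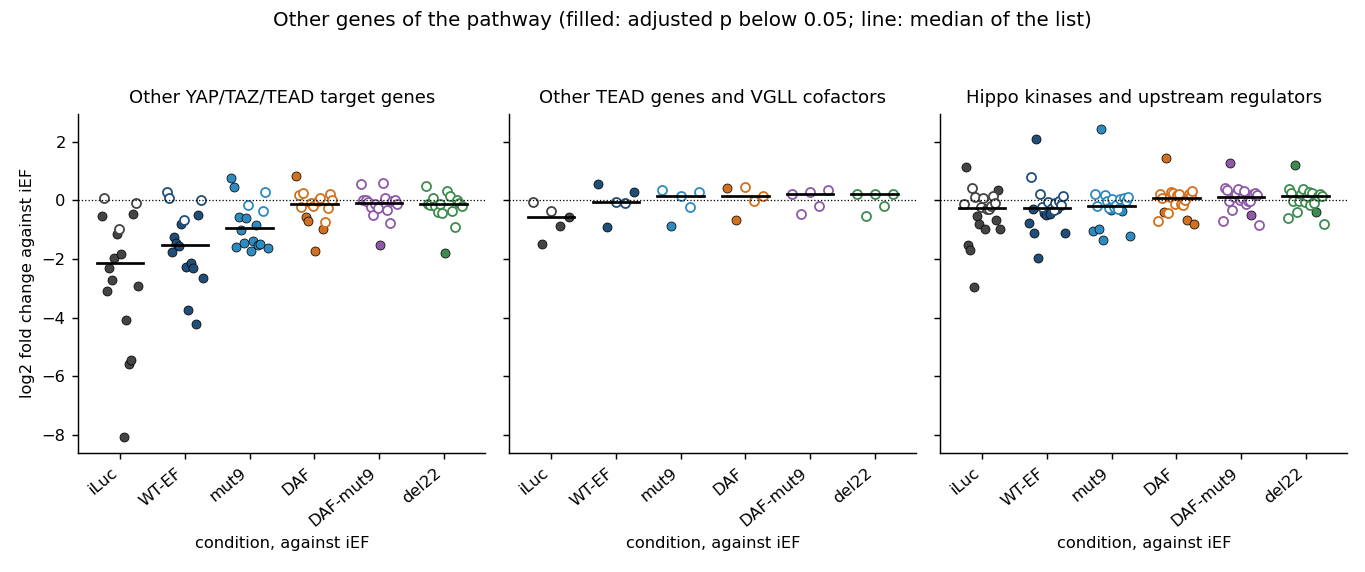
Log2 fold change against iEF of each tested gene in the 3 lists, by condition, with filled points for adjusted p below 0.05 and a line at the median of the list. The target list has its median at -2.14 in iLuc and -0.14 in DAF, and the other lists keep medians between -0.58 and 0.21 in every condition.

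The list of other TEAD genes and VGLL proteins, cofactors that bind TEADs, had 5 tested genes of 7, since VGLL1 and VGLL2 had too few counts. In iLuc 3 of the 5 were lower and none higher, beside 22.4% and 18.7% over all tested genes. The median of the list was -0.58 in iLuc, -0.06 in WT-EF and between 0.15 and 0.21 in the other 4 conditions. TEAD3 was at -1.51 ± 0.15 (adjusted p = 5.25e-08), VGLL3 at -0.89 and VGLL4, a repressor of TEAD activity, at -0.58. TEAD3 was called lower also in WT-EF (-0.91), mut9 (-0.87) and DAF (-0.68), the only call of the list in mut9. VGLL4 was higher in WT-EF (0.30, adjusted p = 0.0376), where TEAD2 was higher too (0.54), as it was in DAF (0.42, adjusted p = 0.0423). TEAD3 was at -0.48 (adjusted p = 0.0746) in DAF-mut9 and at -0.53 (adjusted p = 0.0561) in del22.

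Among 20 genes of the Hippo kinase cascade and its upstream regulators, 8 were lower and 2 higher in iLuc, 9 and 1 in WT-EF, 6 and 1 in mut9, 3 and 1 in DAF, and 1 and 1 in DAF-mut9 and in del22. Over all tested genes 22.4% were lower and 18.7% higher in iLuc, 16.9% and 11.4% in WT-EF, 8.33% and 6.22% in mut9, 4.02% and 3.41% in DAF, 2.14% and 1.26% in DAF-mut9 and 1.79% and 0.881% in del22. The median of the list was -0.26, -0.28 and -0.19 in the first 3 of these conditions and 0.08, 0.09 and 0.14 in the last 3. FRMD6, an upstream activator of the cascade, fell by 2.95 ± 0.20 in iLuc (adjusted p = 2.06e-10), by 1.97 in WT-EF and by 1.37 in mut9. The cadherin FAT1 fell by 1.68 ± 0.12, 1.11 and 0.98 in these conditions and by 0.40 in DAF. AMOTL1, a relative of AMOTL2, fell by 1.52 ± 0.10 in iLuc and by 0.30 in WT-EF. AMOT, the third angiomotin, was higher in iLuc by 1.13 ± 0.31 (adjusted p = 0.00595) and TAOK3, a kinase upstream of the cascade, by 0.33. The core kinase genes STK3 and LATS1 and their partners SAV1 and MOB1B, named here outside the rule for list genes, were not called in iLuc. They do not stand for the whole core. The kinase gene LATS2, a member, was called lower there (-1.12). MOB1A had means of 228 ± 17.5 CPM in iLuc and 270 ± 21.7 CPM in iEF (SD, n = 3). Of the 20 genes, 10 were not called in iLuc. STK4 and FAT4, named after their values were seen, were the 2 genes called in DAF-mut9 and del22. FAT4, another large cadherin, was higher in all 5 rescue conditions (2.09 in WT-EF, 2.41 in mut9, 1.44 in DAF, 1.27 in DAF-mut9 and 1.19 in del22) and was not called in iLuc. STK4 was lower in the same 5 (between -0.67 in DAF and -0.30 in WT-EF).

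The genes with the pattern most like CYR61, CTGF and YAP1 were sought among 10778 genes with a mean of at least 5 CPM, by Pearson's r of log2 CPM over the 21 libraries. These libraries share 3 replicate sets and 7 conditions, and r is given as a description. For CTGF the closest were SERPINB6 (r = 0.957), CTSO (0.956) and the antisense gene HAGLR (0.954). For CYR61 they were VPS13C (0.883), PGGHG (0.876) and SIDT2 (0.868), and for YAP1 WNT5A (0.895), ARMC10 (0.881) and FOXP1 (0.876).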

How the data were processed

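Total RNA of 21 A673 libraries was analysed, 3 in each of 7 conditions, grouped by the sample labels. Per the study's methods the authors sequenced paired-end reads and aligned them to hg19 with STAR (version 2.5.1b in the submitters' processing notes), and the deposited table holds raw counts per gene from htseq-count (intersection-strict). Which annotation release and which strand option it ran with is not given in the sources used here. The authors also deposited a ComBat-adjusted signal, with replicate sets as batches, which served 1 alternative only. The deposited tables of log2 fold changes and p-values hold the authors' own comparisons and were not used.

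Raw counts were fitted in R 4.3.3 with edgeR 4.0.16: TMM, quasi-likelihood model with condition and replicate set, all 21 libraries together, 30549 genes with a mean of at least 1 count of 57820 listed and 48035 with any count. Genes were called at a Benjamini-Hochberg adjusted p below 0.05 over all tested genes, and SE is that of the log2 fold change. The replicate set was kept as a block because the study adjusted for it. Libraries of the same number in other conditions deviated together in 43 of 63 pairs (r over 0.1, median 0.161), against 23 of 126 pairs of other numbers (median -0.0953). Deviations were taken from each condition's own mean and cancel out within it. A negative median for other numbers thus largely follows from a positive one for the same number. The labels do not say whether replicates were separate cultures; the study describes separate knockdown and rescue experiments. CPM uses TMM-adjusted totals, and RPKM divides it by the union of GENCODE 44 exons on GRCh37. The 9 members were named in every condition. Of the 3 pathway lists, up to 3 genes each way were named by fold change in iLuc versus iEF among called genes with a mean of at least 5 CPM. The members and lists were chosen with earlier results of these data known. Alternatives were DESeq2 1.42.0, RLE scaling, 2 other filters on low counts, no block, only the 2 groups compared, ComBat values with limma 3.58.1 (log2 of the value per M + 0.5, AXL not analysed), a 2-fold requirement and each library left out. Tested on simulated counts for WT-EF versus iEF, edgeR recovered 50% of 200 genes changed 2-fold (30052 genes, 1.96% of calls false) and 91% of 200 changed 4-fold (30037 genes, 4.21% false). The simulated counts held no replicate-set effect and only 200 changed genes, whereas 8635 genes were called in the real comparison. These recoveries therefore do not carry over directly to the data.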

Additional observations from a re-analysis of the deposited data

How the results depend on the processing

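Over 29 alternatives, 26 of the 55 called changes of the members were called in each one that gave the gene a value (28 for AXL), 29 lost the call in at least 1, and 27 of the 80 uncalled changes gained one. No called change reversed, and 25 uncalled ones changed sign somewhere. The cause was not tested. The main model holds the replicate block. Without the replicate block, counts of called members went to 0 from 1 for DAF-mut9 versus iEF, to 2 from 5 for mut9 versus WT-EF and to 2 from 4 for DAF-mut9 versus mut9, and no other count moved over 1.5 times. With no low-count filter they rose from 3 to 5 for DAF versus iEF, 1 to 4 for DAF-mut9 versus iEF, 0 to 2 for del22 versus iEF, 3 to 5 for mut9 versus DAF, 0 to 1 for DAF versus del22 and 2 to 5 for mut9 versus del22. With only the 2 groups compared they were 0, 1, 1 and 5 for DAF-mut9 versus iEF, del22 versus iEF, DAF versus del22 and mut9 versus del22. ComBat values with limma were used for the 8 members other than AXL. Over these 8 they gave 5 where the main model called 7 for WT-EF versus iEF, 2 of 3 for mut9 versus iEF and for DAF versus iEF, 1 of 3 for DAF-mut9 versus mut9, 1 of 1 for mut9 versus del22 and 5, where it called 4, for WT-EF versus iLuc. A 2-fold requirement left 3, 1, 1 and 0 members for WT-EF, mut9, DAF and DAF-mut9 versus iEF, and 2 each for WT-EF versus iLuc, mut9 versus WT-EF and DAF-mut9 versus mut9. Leaving out 1 library at a time gave 7 to 8 for iLuc, 7 to 9 for WT-EF, 2 to 5 for mut9, 2 to 5 for DAF, 0 to 1 for DAF-mut9 and 0 to 1 for del22, all versus iEF. It gave 5 to 6 for WT-EF versus iLuc, 3 to 5 for mut9 versus WT-EF, 5 to 7 for DAF versus WT-EF, 3 to 4 for mut9 versus DAF and 1 to 5 for DAF-mut9 versus mut9. Versus del22 it gave 0 for DAF and for DAF-mut9, 5 to 9 for WT-EF and 2 to 3 for mut9. Counts over all tested genes moved most where few were called: DAF-mut9 versus iEF had 1038 and 2243 with no low-count filter, del22 versus iEF 817, 2144 with no low-count filter and 508 without the replicate block, DAF versus del22 297 and 906, and DAF-mut9 versus del22 0 and 14 with no low-count filter, and mut9 versus WT-EF 1878 and 5116 with only the 2 groups compared. Leaving out 1 library moved such counts over 1.5 times in 9 comparisons. The lowest were 2688 of 4445 for mut9 versus iEF, 696 of 1878 for mut9 versus WT-EF (without WT-EF replicate 2), 876 of 2018 for mut9 versus DAF, 1754 of 3003 for DAF-mut9 versus mut9 and 1664 of 2800 for mut9 versus del22, the others of these without mut9 replicate 2. They were 1312 of 2268 for DAF versus iEF without DAF replicate 1, 323 of 1038 for DAF-mut9 versus iEF without DAF-mut9 replicate 1, 185 of 817 for del22 versus iEF without del22 replicate 3 and 170 of 297 for DAF versus del22 without del22 replicate 1. The highest counts in these 9 came without iLuc replicate 3, at 5155, 2474, 2662, 3589, 3437, 2862, 1467, 1123 and 381 in the same order. Scaling by RLE moved the median of all genes by at most 0.0292 on the log2 scale.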

Other observations

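The other pathway genes were also counted in the direct comparisons. Of the 16 other YAP and TAZ target genes, 7 were higher and none lower in mut9 than in WT-EF (median log2 fold change 0.49, beside 0.05 over all tested genes, of which 4.95% were higher and 1.2% lower), and 11 were higher and none lower in DAF than in WT-EF (median 0.87, beside -0.03, with 14.3% of all genes higher and 10.6% lower). In mut9 versus DAF, 8 were lower and none higher (median -0.55, beside 0.05, with 3.48% of all genes lower and 3.13% higher), and in DAF-mut9 versus mut9 8 were higher and 1 lower (median 0.62, beside -0.04, with 5.15% higher and 4.68% lower). Of the 20 genes of the kinase cascade and its regulators, 8 were higher and 2 lower in DAF versus WT-EF (median 0.23). In DAF-mut9 versus mut9, 6 were higher and 1 lower (median 0.25), beside the same shares of all genes. The counts of lower genes in DAF versus WT-EF and in DAF-mut9 versus mut9 were near those shares. In mut9 versus DAF 4 were lower and 1 higher (median -0.22), beside 3.48% and 3.13% of all genes. In mut9 versus WT-EF none of the 20 was called. Of the tested TEAD and VGLL genes, 1 was higher in DAF versus WT-EF, and none was called in the other comparisons named here. The same libraries enter several of these comparisons.

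By RefSeq promoters, 11 of the 16 other target genes were matched, and 4 of their 11 windows held GGAATG on either strand, beside 11.9% of all promoter windows of 250 bases. This list too was chosen for its link to YAP and TAZ, and the contrast is given as a description.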
